A study of Homo sapiens with 16 samples.

Results

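RNA-seq of MCF10A cells was used to follow 32 genes of glucose breakdown and of the response to low oxygen. The members were taken by gene symbol from a fixed list, whatever their counts, and all 32 were found among the 26475 entries of the count table. They comprise 2 glucose transporters, 9 enzymes of the preparatory phase of glycolysis, 2 enzymes that set fructose 2,6-bisphosphate, 6 enzymes of the payoff phase, 4 genes of lactate handling and pyruvate entry, 2 genes of oxygen sensing and 7 further hypoxia-responsive targets.

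Glycolysis splits glucose into pyruvate in the cytosol, with phosphofructokinase as its main control point, and lactate dehydrogenase turns pyruvate into lactate that leaves through monocarboxylate transporters. In low oxygen the prolyl hydroxylases of the EGLN family stop marking the subunit HIF1A for breakdown, and HIF then binds short motifs near glycolytic genes and other targets. HIF1A is regulated largely at the level of its protein, which RNA-seq does not measure.

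The cells, MCF10A, are a human mammary epithelial line that became immortal in culture without forming tumours, so that all groups rest on 1 line. The 16 libraries fell into 4 groups of 4. Control cells received DMSO vehicle for 48 h and no collagen, and Collagen cells received vehicle for 48 h with collagen at 0.05 mg/mL for the last 24 h. DDR1i cells received the same collagen with 2 μM DDR1-IN-1, a small molecule inhibitor of the collagen receptor kinase DDR1, for 48 h. RUNXi cells received the same collagen with 5 μM AI-10-104, which blocks the binding of RUNX proteins to their partner CBFβ, also for 48 h. Each compound was therefore seen at 1 dose and 1 time, no label names a low-oxygen group, and the labels do not say whether replicates came from separate cultures, so that p-values measure only the spread between these libraries.

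Total counts ranged from 12184619 to 44332378 per library. The 11 epithelial markers examined, KRT5 and KRT14 among them, had counts in all 16 libraries, with KRT5 between 6971 and 11592 CPM (counts scaled to library size). Of 10 markers of other cell types, CDH5 and COL3A1 were at 0 in every library, PTPRC and CD3E each had counts in 1 library, and 9 stayed at or under 2.40 CPM, while CD68, which is not restricted to macrophages, lay between 8.53 and 28.7 CPM. Collagen replicate 3 stood apart from its group and was removed by the authors, and it was left out of the tests here. Collagen replicate 4 also differed for the members: it had the highest level of all 16 libraries for 12 of the 32, and its TMM scaling factor was 0.901. Values without Collagen 4 or with Collagen 3 included are given beside the results that they moved most.

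Levels were compared between genes as CPM per kilobase of the canonical transcript (RPKM). The glycolytic chain covered a wide range, with the payoff phase enzyme GAPDH at a median of 4263 RPKM over the 16 libraries and enolase 1 (ENO1), which makes phosphoenolpyruvate, at 2201 RPKM. LDHA, the lactate dehydrogenase subunit that favours lactate formation, had a median of 1424 RPKM, the pyruvate kinase gene PKM 1263 RPKM, the aldolase gene ALDOA 955 RPKM, LDHB 829 RPKM and the triose phosphate isomerase gene TPI1 617 RPKM. PKM and LDHA overlapped in their ranges over the libraries, as did ALDOA and LDHB. Next came the isomerase GPI at 214 RPKM, the lactate exporter SLC16A3 at 203, phosphoglycerate kinase PGK1 at 157, the platelet-type phosphofructokinase PFKP at 143 and hexokinase 1 (HK1) at 115.

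Lower in the order were the stress-response gene NDRG1 at a median of 68.3 RPKM, phosphoglycerate mutase PGAM1 at 62.1 RPKM, the glucose transporter SLC2A1 (GLUT1) at 33.2 RPKM and HIF1A at 29.4 RPKM. VEGFA, the angiogenic growth factor, had 15.8 RPKM, PFKFB3, which makes the phosphofructokinase activator fructose 2,6-bisphosphate, 13.6 RPKM, and adrenomedullin (ADM), a vasodilator peptide, 10.9 RPKM. PDK1, the kinase that holds pyruvate dehydrogenase inactive, had 1.35 RPKM, a value divided by a long canonical transcript of 14072 bases. Before division by length its median was 18.9 CPM, against 16.3 CPM for ADM. The lowest 5 members were close to the floor of the assay. The hypoxia-inducible carbonic anhydrase CA9 had at most 24 counts and none in 4 libraries, EGLN3 and neuronal enolase ENO2 had none in 3 libraries each, and the neuronal glucose transporter SLC2A3 and ANKRD37 had none in 2 libraries each. All 32 members together took between 2.14% and 2.69% of a library's counts.

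**Figure D1:**
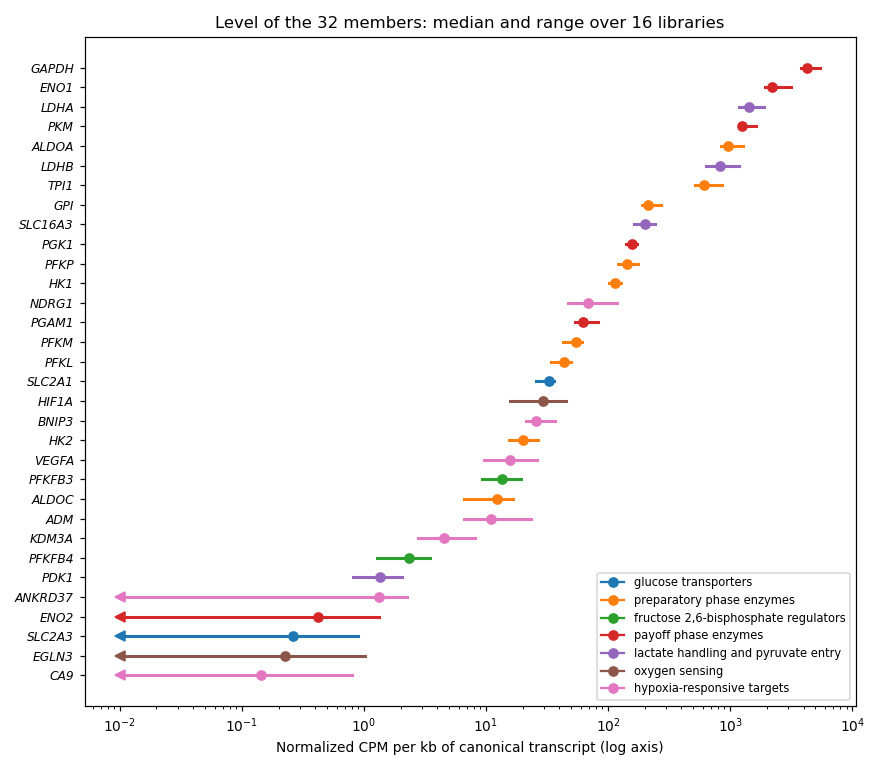
Level of each of the 32 members as CPM per kilobase of canonical transcript, on a log axis, with the median over 16 libraries as a point and the lowest to highest library as a line, coloured by role. Arrows mark 5 members with at least 1 library at 0, and GAPDH leads at a median of 4263.

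Where an enzyme is encoded by several of the members, 1 gene mostly carried the family. In Control, ALDOA made up 98.8% ± 0.145 (SD, n = 4) of aldolase RPKM, HK1 84.7% ± 2.39 of hexokinase RPKM and LDHA 63.9% ± 1.13 of lactate dehydrogenase RPKM. Over the 4 groups, Collagen 3 included, the means ran from 98.7% to 98.8% for ALDOA, from 84.7% to 85.8% for HK1 and from 62.5% to 63.9% for LDHA. Within phosphofructokinase, PFKP made up 60.2% ± 3.82 in Control, 60.9% ± 2.92 in Collagen, 62.1% ± 1.70 in DDR1i and 57.0% ± 1.81 in RUNXi, with PFKM and PFKL sharing the rest. The RUNXi libraries ran from 55.6% to 59.6% and the DDR1i libraries from 59.8% to 63.9%, so that these groups were only narrowly apart, and each overlapped Collagen. These shares were not tested. The level of PFKP itself overlapped between the inhibitors. Its log2 fold change of DDR1i against RUNXi was 0.22 (SE 0.11), with an adjusted p of 0.806 by edgeR's quasi-likelihood test. How reads on near-identical pseudogene copies of GAPDH, ENO1, LDHA, PGAM1, TPI1 and PGK1 were counted is not given in the sources used here, so that the levels of those genes carry that uncertainty.

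RefSeq promoter windows, from 250 bases before to 50 bases after the gene start (GRCh38.p14), were matched by symbol for 29 of the members, all but NDRG1, SLC2A3 and VEGFA. The core of the hypoxia response element, searched as ACGTG or GCGTG on both strands, was present in 21 of 29 member windows and in 48.4% of all 27305 promoter windows. The list includes genes picked as hypoxia-responsive, so that this share is no independent evidence about the present data. The RUNX core, searched as TGTGGT or TGCGGT on both strands, was present in 9 of 29 and in 19.4% of all windows. The 250 bases before the start used for the window are shown for PFKFB3, the glycolytic member called with DDR1i, and for LDHA and PGAM1. Levels of LDHA and PGAM1 lay below the 3 tested Collagen libraries in every library of both inhibitor groups, but neither gene passed the test with either inhibitor. Of all genes, 6.71% were lower in this way with DDR1i and 8.79% with RUNXi. LDHA overlapped Collagen 3, at 2937 CPM, and both genes were at their highest of the 16 libraries in Collagen 4. A link between motifs and levels was not tested. Capitals mark the motif matches, each read 5′ to 3′ on the strand of the gene, and a CACGTG holds ACGTG on both strands.
PFKFB3, chr10:6144671-6144920, plus strand: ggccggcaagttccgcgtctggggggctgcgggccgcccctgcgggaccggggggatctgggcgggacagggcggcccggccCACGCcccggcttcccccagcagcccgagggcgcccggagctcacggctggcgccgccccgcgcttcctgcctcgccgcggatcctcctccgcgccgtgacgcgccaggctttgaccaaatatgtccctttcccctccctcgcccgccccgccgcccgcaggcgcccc
LDHA, chr11:18394313-18394562, plus strand: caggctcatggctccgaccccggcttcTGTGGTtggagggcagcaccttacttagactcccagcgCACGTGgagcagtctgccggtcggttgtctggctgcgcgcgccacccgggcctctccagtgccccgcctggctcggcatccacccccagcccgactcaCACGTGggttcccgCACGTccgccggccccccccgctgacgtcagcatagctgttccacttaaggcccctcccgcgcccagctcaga
PGAM1, chr10:97427568-97427817, plus strand: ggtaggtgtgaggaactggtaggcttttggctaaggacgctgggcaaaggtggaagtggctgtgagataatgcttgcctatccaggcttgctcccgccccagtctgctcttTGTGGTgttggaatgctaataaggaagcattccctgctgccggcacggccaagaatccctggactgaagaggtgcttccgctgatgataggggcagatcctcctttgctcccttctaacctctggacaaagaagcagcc
The LDHA window shown has 5 hypoxia cores over both strands and 1 RUNX core, the PFKFB3 window has 1 hypoxia core and no RUNX core, and the PGAM1 window has 1 RUNX core and no hypoxia core. Only 1 window per symbol was kept, and its start was not matched to that of the canonical transcript. The PGAM1 window may lie within the gene, so that its motifs may not be those of the main promoter. A match of letters describes the sequence and does not show that a factor binds there.

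**Figure D2:**
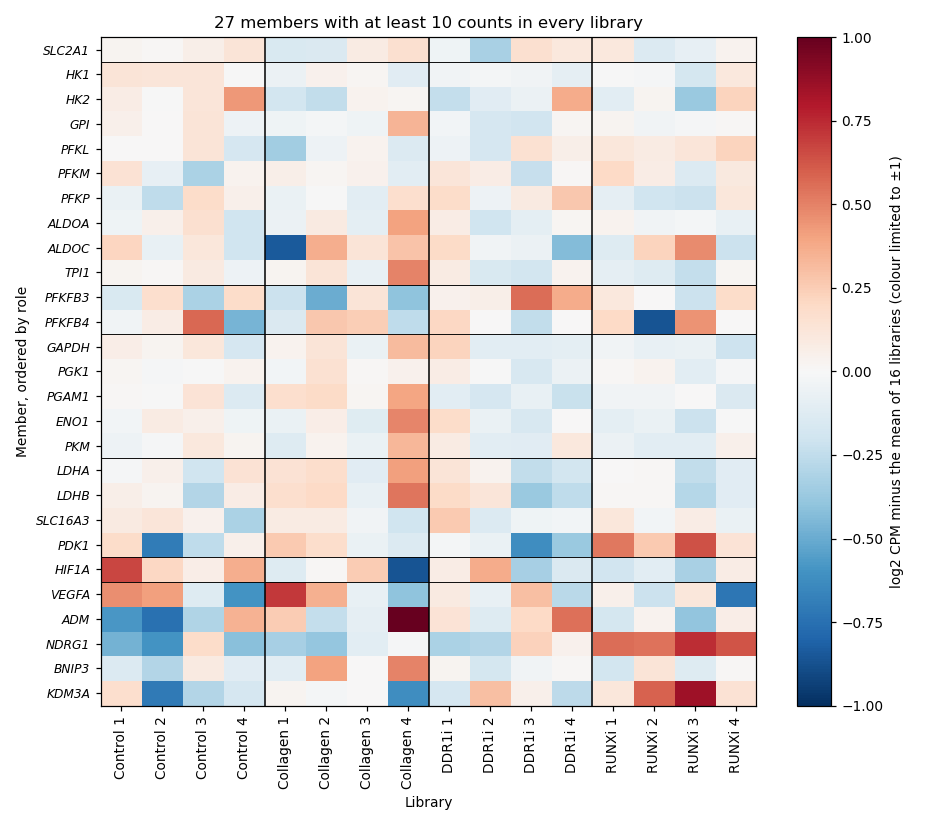
log2 CPM of each of 27 members in each of 16 libraries, minus the member's mean over the 16 libraries, with members ordered by role and vertical lines between groups. NDRG1 is above its mean in all 4 RUNXi libraries, and Collagen 4 holds the highest level of 12 members.

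The first comparison asked what collagen alone did to these genes. Expression of the 32 members did not pass the test in either direction when 3 Collagen libraries were compared with 4 Control libraries, and the same was true of the whole table, where 0% of 13092 tested genes passed (edgeR quasi-likelihood test, Benjamini-Hochberg adjusted p under 0.05). At an unadjusted p under 0.05, 4 members were higher with collagen (LDHB, LDHA, ADM and the mitophagy receptor BNIP3) and 1 was lower (HIF1A), against a background of 6.42% of all genes higher and 6.98% lower. DESeq2 called 415 genes and 0 of the members. In RNA from whole cultures, fewer cells of a kind and less RNA per cell cannot be told apart. The median log2 fold change was 0.07 over the members and 0.01 over all tested genes.

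HIF1A (GRCh37, chromosome 14, 62162231 to 62214977, plus strand, 15 exons in the canonical transcript) had the smallest p. Its level in Control was 180, 131, 118 and 146 CPM in replicates 1 to 4, and in Collagen 104, 114 and 62.2 CPM in replicates 1, 2 and 4 and 135 CPM in replicate 3. The 3 Collagen libraries in the test lay below all Control libraries, whereas Collagen 3 lay within the Control range. How many of all genes separated in this way was not counted for this comparison. The log2 fold change was -0.62 (SE 0.20), with an adjusted p of 0.193 by edgeR's quasi-likelihood test. Without Collagen 4, the lowest library, HIF1A had a log2 fold change of -0.39, and with Collagen 3 included -0.46.

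LDHB (chromosome 12, 21788276 to 21910791, minus strand, 8 exons) encodes the heart-type lactate dehydrogenase subunit. Control libraries had 1111, 1086, 873 and 1124 CPM and Collagen libraries 1197, 1223 and 1550 CPM in replicates 1, 2 and 4. All 3 lay above Control, and Collagen 3, at 1017 CPM, lay within the Control range. PGAM1 was likewise higher in all 3, and the scarce ANKRD37, like HIF1A, was lower. No share over all genes was counted beside these separations. LDHB had a log2 fold change of 0.34 (SE 0.13), with an adjusted p of 0.264 by edgeR's quasi-likelihood test. That fold change was 0.21 without Collagen 4, 0.26 with Collagen 3 included and 0.05 with the trend of counts with transcript length removed from each library. The number of members at that threshold changed with the libraries used. Without Collagen 4, 0 members in place of 4 were higher at an unadjusted p under 0.05, and with Collagen 3 included there were 0 as well. That count was 1 without Control 1 and without Control 2, and 2 without Control 3 and without Collagen 2. It was 3 without Control 4 and rose to 6 without Collagen 1. The count of lower members was 1 or 2 when any 1 library was left out. With the length trend removed 1 member was higher and 1 lower, against 2.1% and 3.64% of all genes.

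**Figure D3:**
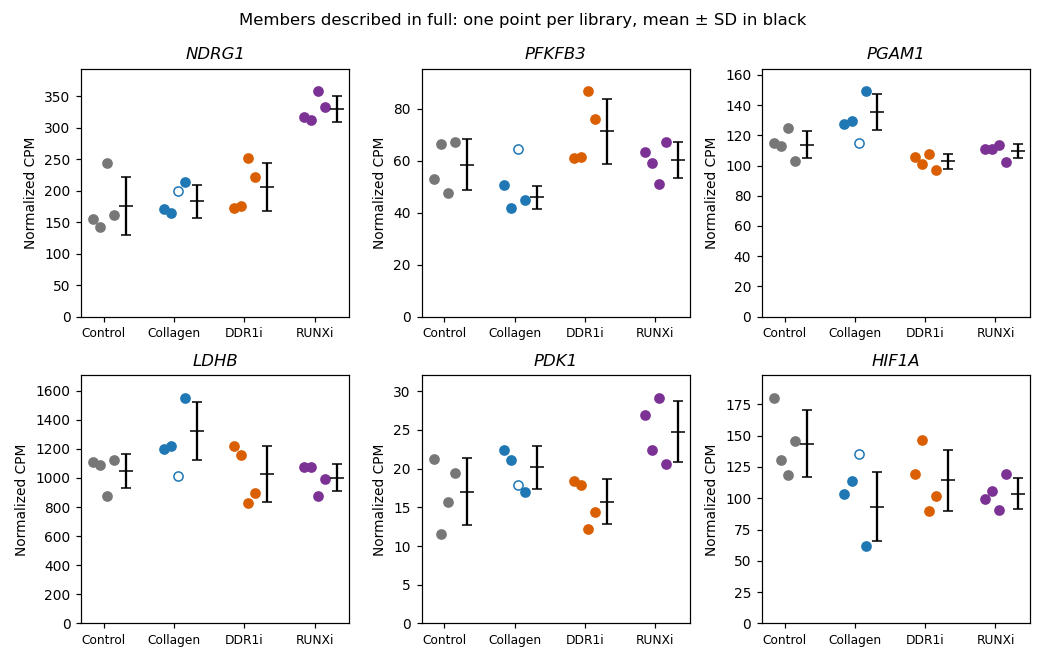
Normalized CPM of the 6 members described in full, 1 point per library, with the mean ± SD of each group in black (n = 4, and n = 3 for Collagen without the open point, replicate 3). NDRG1 in RUNXi runs from 313 to 358 CPM, above every other library.

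The second comparison asked how the DDR1 inhibitor changed expression in the presence of collagen. PFKFB3 was the 1 member of 31 tested that passed, 3.23% of the members against 2.47% of all 13548 tested genes, a share near the background. CA9 did not pass the filter on low counts in the fit of the 11 libraries with collagen. PFKFB3 (chromosome 10, 6186897 to 6296607, plus strand, 15 exons) is the inducible kinase that raises fructose 2,6-bisphosphate and thereby phosphofructokinase activity.

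Its level in DDR1i was 61.0, 61.3, 86.7 and 76.1 CPM in replicates 1 to 4, and in Collagen 50.8, 41.9 and 44.8 CPM in replicates 1, 2 and 4. Every DDR1i library was above these 3, but Collagen 3, at 64.4 CPM, lay within the DDR1i range, and Control, at 53.0, 66.4, 47.5 and 67.0 CPM, overlapped DDR1i. PFKFB3 rose 1.55-fold, a log2 fold change of 0.64 (SE 0.15), with an adjusted p of 0.0268 by edgeR's quasi-likelihood test.

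That call depended on single libraries. With Collagen 3 included the log2 fold change was 0.49, with an adjusted p of 0.453 by edgeR's quasi-likelihood test. The adjusted p was 0.0854 without Collagen 2, 0.0733 without Collagen 4, 0.123 without DDR1i 3 and 0.09 without DDR1i 4. With a smooth trend of counts with transcript length removed from each library, the log2 fold change was 0.50 and the adjusted p 0.0979. The log2 fold change stayed between 0.49 and 0.70 over all 21 alternatives, and 15 of them kept the call. Among those 15 are the unadjusted threshold, which a called gene cannot fail, and the fits without a RUNXi library, which remove none of the libraries compared. PFKFB4, the other kinase of this role, had 8.13 CPM in DDR1i and 7.99 CPM in Collagen on average.

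**Figure D4:**
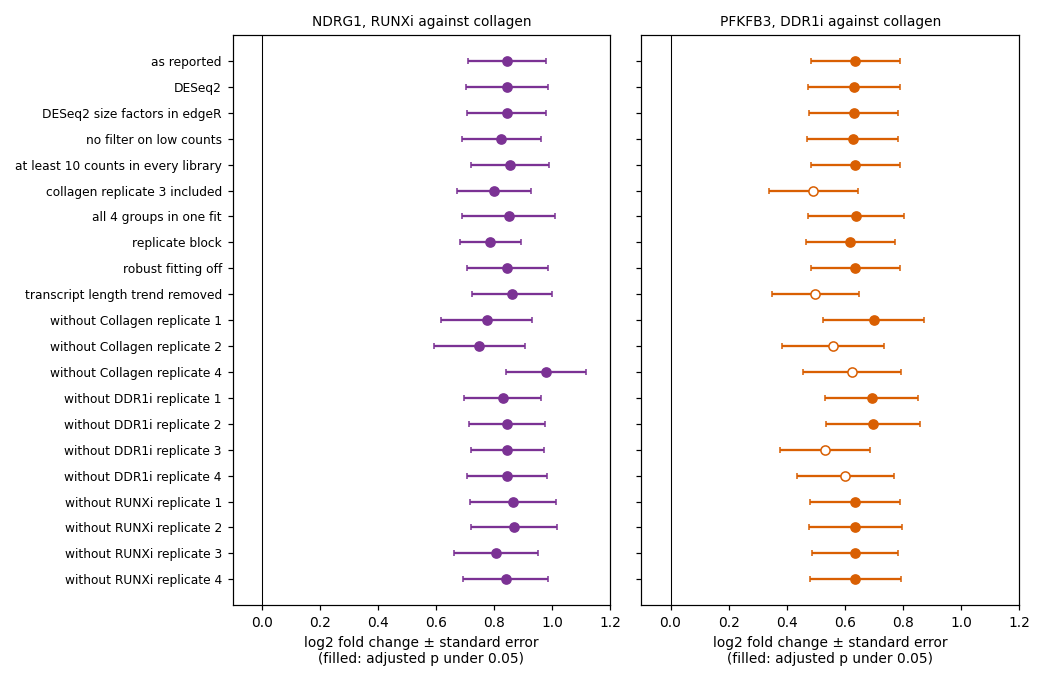
log2 fold change ± SE of NDRG1 (RUNXi against collagen alone) and PFKFB3 (DDR1i against collagen alone) as reported and under 20 other settings, where filled points have an adjusted p under 0.05. NDRG1 is filled in every row, and PFKFB3 is open in 6 rows.

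PGAM1 (chromosome 10, 99185948 to 99193201, plus strand, 4 exons), the mutase between the phosphoglycerate isomers, had the next smallest p with DDR1i. Its level was 106, 101, 108 and 97.1 CPM in DDR1i, against 128, 129 and 149 CPM in Collagen 1, 2 and 4. All DDR1i libraries lay below all Collagen libraries, Collagen 3 included at 115 CPM, while Control, at 115, 113, 125 and 103 CPM, overlapped DDR1i. PGAM1 had a log2 fold change of -0.40 (SE 0.12), with an adjusted p of 0.0613 by edgeR's quasi-likelihood test, and so did not pass. In RUNXi the levels were 111, 111, 114 and 103 CPM, with a log2 fold change of -0.31 and an adjusted p of 0.116. Without Collagen 4 the log2 fold changes of PGAM1 were -0.32 with DDR1i and -0.23 with RUNXi.

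At an unadjusted p under 0.05, 5 members were lower with DDR1i (PGAM1, LDHB, LDHA, TPI1 and BNIP3) and 1, PFKFB3, was higher, against 8.14% of all genes lower and 9.88% higher. Counting separation alone, 2 members were lower in every DDR1i library than in every tested Collagen library (PGAM1 and LDHA) and 1 was higher (PFKFB3), against 6.71% and 8.44% of all genes. Of these, PGAM1 was also apart from Collagen 3, which LDHA and PFKFB3 were not. The 5 lower members had log2 fold changes between -0.40 and -0.28, and all 5 were at their highest level of the 16 libraries in Collagen 4. Without Collagen 4, 3 members were lower at that threshold (PGAM1, PDK1 and VEGFA), and with Collagen 3 included 1 was (PGAM1). The count of lower members was 1 without DDR1i 3, 3 without DDR1i 2 and 8 without Collagen 1, and that of higher members was 2 without Collagen 2, Collagen 4 or DDR1i 3. With the length trend removed 6 members were lower, against 10.1% of all genes lower and 4.27% higher. PGAM1 was among the lower members in each of these alternatives.

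By role, the 9 preparatory phase enzymes had a median log2 fold change of -0.01 with DDR1i and the 6 payoff phase enzymes -0.14. In edgeR's quasi-likelihood test 0 of either passed the adjusted threshold, and 1 of each did at an unadjusted p under 0.05. Hexokinase 2 (HK2), the inducible isozyme, averaged 113 CPM in DDR1i and 102 CPM in Collagen, and SLC2A1, which brings glucose into the cell, averaged 108 CPM and 107 CPM. The median over the 31 tested members was -0.01, against 0.00 over all genes.

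Several abundant members differed little from collagen alone with either inhibitor. SLC16A3 ranged from 422 to 628 CPM over all 16 libraries, with log2 fold changes of 0.02 in both comparisons (SE 0.12). PGK1 ranged from 676 to 838 CPM, with log2 fold changes of -0.09 with DDR1i and -0.08 with RUNXi (SE 0.11), and HK1 from 369 to 457 CPM, with -0.01 and 0.02 (SE 0.11). Differences of these genes were thus within 1 standard error of 0. The muscle-type phosphofructokinase PFKM had 0.01 and 0.07 (SE 0.12), and SLC2A1 0.02 in both (SE 0.13). At the other end, the scarce members gave wide errors: ENO2 had log2 fold changes of 1.52 (SE 1.04) and 1.79 (SE 1.05), and EGLN3, a HIF prolyl hydroxylase, 0.60 (SE 1.28) and 1.65 (SE 1.31), neither of which passed. CA9, a classical HIF target, had 1.23, 0.718, 0.255 and 0.321 CPM in Collagen and none of the other 12 libraries exceeded 0.531 CPM, and it did not pass the filter on low counts in the fit of the inhibitors.

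**Figure D5:**
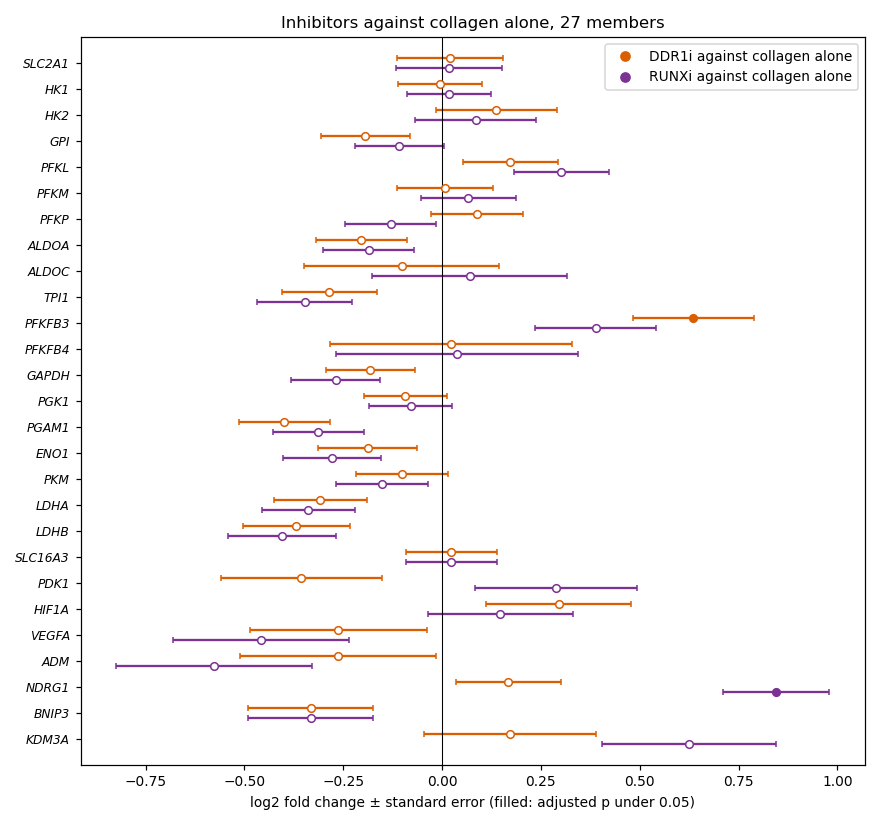
log2 fold change ± SE of 27 members in DDR1i (orange) and RUNXi (purple) against collagen alone, with filled points where the adjusted p was under 0.05. PFKFB3 at 0.64 in DDR1i and NDRG1 at 0.85 in RUNXi are the filled points, and both comparisons use the same 3 Collagen libraries.

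The RUNX inhibitor was compared with the same Collagen libraries. NDRG1 was the 1 member of 31 that passed, 3.23% of the members against 4.05% of all tested genes, again a share near the background. NDRG1 is a cytosolic stress-response protein whose gene is induced by hypoxia through HIF and also responds to iron depletion. In RUNXi it had 318, 313, 358 and 332 CPM in replicates 1 to 4, against 171, 165 and 213 CPM in Collagen 1, 2 and 4 and 200 CPM in Collagen 3.

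All 4 RUNXi libraries lay above the 12 libraries of the other groups, of which the highest, DDR1i 3, had 253 CPM. Control libraries had 155, 142, 244 and 161 CPM. NDRG1 rose 1.80-fold, from 183 ± 26.3 CPM (SD, n = 3) to 330.1 ± 20.4 CPM (SD, n = 4), a log2 fold change of 0.85 (SE 0.13) with an adjusted p of 0.000939 by edgeR's quasi-likelihood test. It passed in 21 of 21 alternatives, with log2 fold changes between 0.75 and 0.98 and adjusted p-values up to 0.0139. Of these, the unadjusted threshold cannot lose a call, and leaving out a DDR1i library removes none of the libraries compared. The call held without each Collagen library in turn and with Collagen 3 included.

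At an unadjusted p under 0.05, 4 members were higher with RUNXi, namely NDRG1, KDM3A, PFKFB3 and the liver-type phosphofructokinase PFKL, against 10.8% of all genes. The 8 members that were lower were LDHB, TPI1, LDHA, PGAM1, GAPDH, ADM, ENO1 and BNIP3, against 10.2%, and all 8 were at their highest of the 16 libraries in Collagen 4. Without Collagen 4, 3 members were lower (LDHA, LDHB and VEGFA), and with Collagen 3 included 4 were, whereas without Collagen 1 there were 10. With the length trend removed 2 were lower (LDHA and PGK1), against 8.64% of all genes, and 3 were higher, against 6.35%. Without RUNXi 4, and with Collagen 3 included, 2 members were higher in place of 4. Counting separation alone, the same 4 members were higher in every RUNXi library than in every tested Collagen library, against 9.46% of all genes, and 5 were lower (LDHB, TPI1, LDHA, PGAM1 and GAPDH), against 8.79%. PGAM1 was also below Collagen 3, whereas LDHB, TPI1, LDHA and GAPDH overlapped it, and of the higher members PFKFB3 overlapped it.

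KDM3A, a histone H3 lysine 9 demethylase induced by hypoxia, had 22.7, 31.5, 37.8 and 23.2 CPM in RUNXi and 21.4, 20.8 and 13.6 CPM in Collagen 1, 2 and 4. Its groups did not overlap, but RUNXi 1 was close to Collagen 1, and the log2 fold change of 0.62 (SE 0.22) had an adjusted p of 0.0981 by edgeR's quasi-likelihood test. LDHB had 1074, 1075, 874 and 990 CPM in RUNXi, all below the 3 tested Collagen libraries, although RUNXi 1 and 2 lay above Collagen 3 at 1017 CPM. Its log2 fold change was -0.40 (SE 0.14), with an adjusted p of 0.0842, and it was -0.27 without Collagen 4 and -0.20 with the length trend removed. For KDM3A the log2 fold change was 0.45 without Collagen 4. In DDR1i LDHB had 1219, 1160, 825 and 897 CPM, which overlapped Collagen.

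LDHA levels in RUNXi were 3184, 3199, 2678 and 2946 CPM, against 3515, 3591 and 4235 CPM in Collagen 1, 2 and 4 and 2937 CPM in Collagen 3. LDHA had a log2 fold change of -0.34 (SE 0.12) and an adjusted p of 0.0959 by edgeR's quasi-likelihood test. Without Collagen 4 the log2 fold change was -0.24. The RUNXi libraries lay below the 3 tested Collagen libraries but not below Collagen 3. Among the hypoxia-responsive targets, ADM and VEGFA had log2 fold changes of -0.58 (SE 0.25) and -0.46 (SE 0.22) with RUNXi, and their libraries overlapped those of Collagen. VEGFA had 59.5, 49.4, 62.0 and 34.8 CPM in RUNXi 1 to 4, against 93.9, 73.3, 54.4 and 43.5 CPM in Collagen 1 to 4. By replicate number, RUNXi was thus lower in 1, 2 and 4 and higher in 3. The labels do not say that the number marks a shared culture, and Collagen 3 was left out of the tests. The 6 tested targets had a median of -0.10 and the 31 members a median of 0.02, against 0.01 over all genes.

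The inhibitors were then compared directly within the same fit, at the single dose given for each. NDRG1 was again the 1 member of 31 that passed, against 0.568% of all tested genes. Its 4 DDR1i libraries, at 173, 176, 253 and 222 CPM, all lay below the RUNXi libraries. The log2 fold change of DDR1i against RUNXi was -0.68 (SE 0.12), with an adjusted p of 0.00349 by edgeR's quasi-likelihood test, and 21 of 21 alternatives kept the call, between -0.79 and -0.60. Against collagen alone NDRG1 had a log2 fold change of 0.17 (SE 0.13) with DDR1i, with an adjusted p of 0.57.

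PDK1 (chromosome 2, 173420101 to 173473397, plus strand, 11 exons) had the next smallest p. It had 18.4, 17.9, 12.2 and 14.4 CPM in DDR1i and 27.0, 22.4, 29.1 and 20.6 CPM in RUNXi, without overlap. Control, at 21.3, 11.5, 15.7 and 19.4 CPM, and Collagen, at 22.4, 21.1, 17.9 and 17.0 CPM, lay across the range between them. The log2 fold change of DDR1i against RUNXi was -0.64 (SE 0.19), with an adjusted p of 0.2 by edgeR's quasi-likelihood test, and did not pass.

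At an unadjusted p under 0.05, 3 members were lower in DDR1i than in RUNXi (NDRG1, PDK1 and KDM3A), against 2.99% of all genes, and 0 were higher, against 3.2%. Without 1 library at a time the higher count was 0 to 1, except 2 without DDR1i 2. PFKFB3 was called with DDR1i and not with RUNXi, but the difference between the inhibitors, a log2 value of 0.25 (SE 0.14), did not pass (adjusted p = 0.905 by edgeR's quasi-likelihood test). In RUNXi PFKFB3 had 63.4, 59.1, 50.9 and 67.1 CPM, and its log2 fold change against collagen alone was 0.39 (SE 0.15) with an adjusted p of 0.138. The median over the 31 members was 0.00, against 0.01 over all genes.

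Other genes of the pathway were taken from 3 lists. In collagen against control the lists had 41, 9 and 42 tested genes, and 0 of them passed edgeR's quasi-likelihood test. Over the 3 lists, 2 were higher and 5 lower at an unadjusted p under 0.05, against 6.42% and 6.98% of all genes. Of 41 tested genes among 52 other isozymes and branches of glucose metabolism, 1 fell and 0 rose with DDR1i, against 0.775% and 1.69% of all genes. At an unadjusted p under 0.05, 9 were lower and 2 higher with DDR1i, against 8.14% and 9.88% of all genes. Fold changes with DDR1i were negative for 31 and positive for 10 of the 41, against 6727 negative and 6821 positive over all genes. With RUNXi they were negative for 29 and positive for 12, against 6706 and 6842 over all genes. Both comparisons use the same Collagen libraries. Collagen 4 had the highest level of the 16 libraries for some of these genes, such as BSG, PGD and TALDO1, and the lowest for PYGB. The gene that fell at the adjusted threshold was MPC1, a subunit of the mitochondrial pyruvate carrier (log2 fold change -0.64, SE 0.16). Its adjusted p was 0.0323 by edgeR's quasi-likelihood test. The median log2 fold changes of this list were -0.14 with DDR1i and -0.08 with RUNXi, against 0.00 and 0.01 over all genes.

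Of 9 tested genes among 11 for oxygen sensing and HIF subunits, 0 passed edgeR's quasi-likelihood test in any comparison. At an unadjusted p under 0.05, 3 were higher and 1 lower with DDR1i (9.88% and 8.14% of all genes), 3 higher and 0 lower with RUNXi (10.8% and 10.2%), and 0 higher and 1 lower between the inhibitors (3.2% and 2.99%). Of 43 tested genes among 47 other hypoxia-responsive genes, 1 fell with DDR1i (FAM162A, a mitochondrial protein, log2 fold change -0.62, SE 0.17, adjusted p = 0.0427). With RUNXi 2 rose and 1 fell, against 2.59% and 1.46% of all genes. TFRC, the receptor for iron-loaded transferrin, rose by a log2 value of 1.01 (SE 0.13), HMOX1, which degrades heme, rose by 1.34 (SE 0.38), and IGFBP3, a carrier of insulin-like growth factors, fell by 1.87 (SE 0.43). The adjusted p-values were 9.87e-05, 0.0448 and 0.0187 by edgeR's quasi-likelihood test. The median log2 fold changes of this list were 0.04 with DDR1i and 0.07 with RUNXi. The transcripts of TFRC and HMOX1 are also known to respond to iron and to heme and oxidative stress.

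TFRC had 406, 423, 337 and 449 CPM in RUNXi and 207, 211 and 183 CPM in Collagen 1, 2 and 4, and Control libraries, at 231 to 336 CPM, lay above Collagen and below the lowest RUNXi library. Between the inhibitors 0.347% of all genes were higher and 0.221% lower in DDR1i. Of this list 3 were higher, namely the repressor BHLHE40 (0.84, SE 0.16), IGFBP3 (1.82, SE 0.41) and the secreted hormone STC1 (2.32, SE 0.53), and TFRC was lower (-0.93, SE 0.12). Their adjusted p-values by edgeR's quasi-likelihood test were 0.0051, 0.029, 0.0384 and 6.76e-05. TFRC in both comparisons, BHLHE40, and IGFBP3 with RUNXi against collagen passed in 21 of 21 alternatives.

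The other calls given for these lists were lost in some alternatives by edgeR's quasi-likelihood test. MPC1 was not called without Collagen 4, DDR1i 2, DDR1i 3 or DDR1i 4 (adjusted p 0.0692 to 0.183), nor with Collagen 3 included (0.453) or the length trend removed (0.101). FAM162A was not called without Collagen 4, DDR1i 2, DDR1i 3, DDR1i 4 or RUNXi 2 (0.0616 to 0.211) nor with Collagen 3 included (0.454) or robust fitting off (0.0541). HMOX1 was not called without any 1 of the 3 Collagen libraries, DDR1i 2, RUNXi 1, RUNXi 2 or RUNXi 3 (0.0525 to 0.16), nor with Collagen 3 included (0.115), with all 4 groups in one fit (0.257) or with a replicate block (0.0593). Between the inhibitors IGFBP3 was lost without DDR1i 1, 2 or 3 or RUNXi 1, 2 or 4 (0.0559 to 0.298), and STC1 without the same 6 libraries (0.119 to 0.253), with all 4 groups in one fit (0.168) and with robust fitting off (0.0548).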

How the data were processed

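RNA-seq libraries were made with a TruSeq kit and sequenced as paired-end reads. The authors aligned the reads to GRCh37 (hg19) with STAR and deposited raw counts of reads per gene in 16 libraries; the counting tool, annotation and use of strand are not given in the sources used here. Groups came from the labels, doses and times from the study's methods. The 26475 entries have 26473 distinct names, 28 of them dates.

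Differential expression of the counts was fitted with edgeR 4.0.16 under R 4.3.3 (filterByExpr, TMM, robust quasi-likelihood fit, Benjamini-Hochberg adjustment over all tested genes, threshold 0.05). Collagen was compared with Control in 7 libraries (13092 genes), and the inhibitors in 11 libraries (13548 genes), without Collagen 3, which the authors removed. CPM in every library used 1 TMM scale over 16 libraries and 13518 genes. RPKM used canonical transcript lengths of GENCODE lifted to GRCh37. In every pair of replicates the difference exceeded counting noise (chi-square at least 18.7 times its degrees of freedom), and the biological coefficient of variation was 0.353 and 0.287 in the fits.

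The members and the pathway lists were chosen with earlier results of these data known. Members are described in full if they passed in any comparison or had 1 of the 2 smallest p-values in one, and list genes are named if they passed, except for 1 item that is not reported here. Members named by a count at an unadjusted p, and KDM3A, LDHA and other members with values, were chosen after their values were seen. Alternatives were DESeq2 1.42.0, its size factors, the filter, the threshold, Collagen 3 included, 1 fit of 4 groups, a replicate block, robust fitting off, the transcript length trend removed (splines with 4 degrees of freedom) and each library left out. Every count of 21 alternatives includes the unadjusted p, at which no call can be lost. It also includes fits without a library of the group not compared. Counts at an unadjusted p without each library, and the alternatives for list genes, were added after the data were seen. Promoters were searched with Python 3.11.15.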

Additional observations from a re-analysis of the deposited data

Results flagged for a closer look

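In groups of 4, a library was taken as distant when its gap to the nearest other, divided by the group's range, exceeded Dixon's critical value for 95% confidence. Of 32 groups tested, 2 were, and chance gives about 1.6. LDHB in Control had a ratio of 0.848, with Control 3 at 873 CPM and the others between 1086 and 1124 CPM. The total counts of the Collagen libraries had a ratio of 0.896, with Collagen 1 at 17570707. NDRG1 differed between the inhibitors by the test of the difference itself, with a log2 value of -0.68 for DDR1i minus RUNXi.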

How the results depend on the processing

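NDRG1 kept its direction and its call in every alternative tried for RUNXi, against collagen and against DDR1i, and none of the members described in full changed sign. Counts of members called moved in other settings. Of 32 members, DESeq2 called 2 with DDR1i (PFKFB3 and PGAM1) and 5 with RUNXi (NDRG1, LDHB, LDHA, TPI1 and PGAM1). Of 17911 genes it called 857 and 1168. Without the filter on low counts 1 of 32 members was called for collagen against control (HIF1A) and 3 with RUNXi (NDRG1, LDHB and VEGFA). Over all genes these settings called 284 of 18059 and 1046 of 17911. At an unadjusted p under 0.05 there were 5 members for collagen against control, 6 with DDR1i, 12 with RUNXi and 3 between the inhibitors. These were 15.6%, 19.4%, 38.7% and 9.68% of the tested members, against 13.4%, 18%, 21.1% and 6.19% of all genes. With Collagen 3 included 0 were called with DDR1i, and with the length trend removed 0 as well. Leaving out 1 library at a time gave 0 to 1 members with DDR1i (0 without Collagen 2, Collagen 4, DDR1i 3 or DDR1i 4) and 1 to 2 with RUNXi (2 without Collagen 1, TPI1 being added). The cause of these changes was not tested.

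Over all genes, collagen against control gave 0 calls by edgeR's quasi-likelihood test (1754 at an unadjusted p under 0.05), 415 by DESeq2, 284 without the filter and 313 with all 4 groups in one fit. DDR1i gave 334 calls, 857 by DESeq2, 755 without the filter, 9 with Collagen 3 included and 162 with the length trend removed. RUNXi gave 549 calls, 1168 by DESeq2, 1046 without the filter, 60 with Collagen 3 included and 203 with the length trend removed. Between the inhibitors there were 77 calls, 134 by DESeq2 and 163 without the filter. Leaving out 1 library gave 60 to 662 calls with DDR1i, 123 to 715 with RUNXi and 53 to 109 between the inhibitors.

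The labels do not say that a replicate number marks a shared culture or day, and the main tests do not pair the libraries by number. Of 24 same-numbered pairs, 7 had correlated deviations with r over 0.1, 6 of them among replicates 4 (0.16 to 0.28). As a hint from the data, the median r was 0.07 for the same number and -0.02 for different numbers. Of 16 libraries, 12 correlated best with their own number, although most possible partners bear another number. Any such shared structure is not modelled in the main tests. With a replicate block 0 members were called for collagen against control, 2 with DDR1i (PFKFB3 and PGAM1), 2 with RUNXi (NDRG1 and VEGFA) and 1 between the inhibitors, among 0, 537, 759 and 154 genes. Depth limits most the 5 members with a library at 0 counts. Of these, CA9 and ENO2 had unadjusted p-values of 0.0272 and 0.0334 with RUNXi by DESeq2, which gave neither an adjusted p.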
